A study of Homo sapiens with 2 samples.

Results

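The 33 genes described here are heat shock chaperones, their regulators and immediate early genes, taken by symbol from both count matrices. All 33 symbols had a row among the 36601 genes of each matrix. They comprise 21 chaperone and cochaperone genes, 2 genes of heat shock factors (HSF1 and HSF2) and 10 early response genes. The data are single-cell RNA-Seq of LNCaP_FGC, an androgen-responsive line from a lymph node metastasis of prostate carcinoma, and of its castration-resistant derivative LNCaP_C4-2B, which was obtained from LNCaP by passage in mice and recovered from bone. Both were grown untreated in RPMI1640 with 10% fetal bovine serum, detached with trypsin and captured as 1 library of 1850 cells per line with 10x Genomics 3′ chemistry. No other allele, agent or time point distinguishes the samples, and the labels put each library in its own batch, which means that a batch difference and a strain difference cannot be told apart.

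Heat shock proteins bind unfolded proteins and help them to reach or regain their folded state. HSP70 proteins bind short exposed stretches with the help of J-domain proteins and are reset by exchange factors of the HSP110 and BAG families, HSP90 acts later on clients such as kinases and steroid receptors, including the androgen receptor, and the mitochondrial chaperonin encloses proteins in a chamber. Under proteotoxic stress the factor HSF1 binds heat shock elements in the promoters of many of these genes. Immediate early genes such as FOS, JUN and EGR1 are transcribed within minutes of growth factor, serum or stress signals without new protein synthesis.

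The 2 libraries held 35150013 UMIs (LNCaP_FGC) and 35149989 UMIs (LNCaP_C4-2B) after the authors thinned both to a mean of 19000 per cell, and 1 UMI equals 0.0284 CPM, the count per 1000000 UMIs of the library. No barcode was shared between the libraries. All 7 luminal prostate markers were detected in each library (summed 2625 and 4961 CPM), whereas the summed markers of basal, fibroblast, immune, endothelial and erythroid cells lay between 0.0569 and 5.6 CPM. The mitochondrial share of UMIs was 6.27% (LNCaP_FGC) and 8.35% (LNCaP_C4-2B), and the share of ribosomal protein genes 23.2% and 28.2%. Each line has 1 library and cells are not replicates, so no test was run, and every interval is an exact 95% interval that covers counting error only. Counts came from transcript 3′ ends and are not scaled to transcript length, so a value is compared between groups of cells and not between genes.

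The promoters of the chaperone genes are shown because they carry the element that HSF1 recognizes. RefSeq promoter windows on GRCh38.p14, from 250 bases before to 50 bases after a start, were found for 29 of the 33 symbols, in 37 windows, and not for HSPA14, HSPB11, HSF1 and IER3. A heat shock element was taken as GAANNTTC or TTCNNGAA, each of which reads the same on both strands and may overlap the other in longer runs. At least 1 such element was found for 12 of 19 chaperone genes and for 1 of 9 early response genes (JUN), against 16.2% of 27305 genes and 13.5% of all 35116 windows. Runs of 3 alternating units were found for 6 of 19 chaperone genes (DNAJA1, DNAJB6, HSP90AA1, HSP90AB1, HSPA8 and HSPD1) and for 0 of 9 early response genes, against 0.608% of genes. The stretches of 250 bases upstream of the start of 6 genes are given 5′ to 3′ on the coding strand, with heat shock elements in capitals. They are HSPA1A (chr6:31815293-31815542, plus strand), HSPA1B (chr6:31827488-31827737, plus strand), HSP90AA1 (chr14:102087045-102087294, minus strand), HSP90AB1 (chr6:44247693-44247942, plus strand), HSPB1 (chr7:76302423-76302672, plus strand) and HSPA8 (chr11:123062137-123062386, minus strand). For HSP90AA1 and HSP90AB1 the window of a start inside the annotated gene is given, since the other windows of these genes hold no element.
HSPA1A: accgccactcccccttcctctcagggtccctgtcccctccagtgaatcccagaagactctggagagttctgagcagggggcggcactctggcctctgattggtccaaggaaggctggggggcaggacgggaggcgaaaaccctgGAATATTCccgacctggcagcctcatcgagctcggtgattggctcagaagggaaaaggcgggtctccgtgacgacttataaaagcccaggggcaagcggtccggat
HSPA1B: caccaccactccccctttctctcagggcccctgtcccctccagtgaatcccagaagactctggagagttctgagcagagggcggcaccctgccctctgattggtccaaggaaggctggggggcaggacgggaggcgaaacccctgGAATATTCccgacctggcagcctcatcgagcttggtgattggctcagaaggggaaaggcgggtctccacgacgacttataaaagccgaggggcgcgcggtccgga
HSP90AA1: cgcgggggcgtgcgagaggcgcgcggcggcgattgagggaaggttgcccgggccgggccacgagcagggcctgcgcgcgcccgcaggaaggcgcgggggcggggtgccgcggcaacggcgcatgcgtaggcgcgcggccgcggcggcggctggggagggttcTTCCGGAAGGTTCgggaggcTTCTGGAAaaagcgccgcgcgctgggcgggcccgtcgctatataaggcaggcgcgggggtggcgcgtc
HSP90AB1: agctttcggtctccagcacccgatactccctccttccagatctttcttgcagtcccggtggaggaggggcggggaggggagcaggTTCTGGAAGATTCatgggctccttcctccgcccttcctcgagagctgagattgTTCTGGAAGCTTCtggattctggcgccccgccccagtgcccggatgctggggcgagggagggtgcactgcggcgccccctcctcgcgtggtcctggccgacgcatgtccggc
HSPB1: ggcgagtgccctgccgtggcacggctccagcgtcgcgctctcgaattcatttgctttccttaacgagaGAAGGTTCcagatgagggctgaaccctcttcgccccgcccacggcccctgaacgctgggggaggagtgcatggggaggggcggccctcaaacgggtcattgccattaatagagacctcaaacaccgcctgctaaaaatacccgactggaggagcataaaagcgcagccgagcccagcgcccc
HSPA8: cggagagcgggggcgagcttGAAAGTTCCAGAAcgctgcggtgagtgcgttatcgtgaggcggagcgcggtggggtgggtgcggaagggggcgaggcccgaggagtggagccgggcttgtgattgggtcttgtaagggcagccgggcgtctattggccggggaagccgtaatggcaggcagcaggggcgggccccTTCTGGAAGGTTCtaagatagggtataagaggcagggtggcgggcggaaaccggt

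The stress-inducible genes HSPA1A and HSPA1B have nearly the same promoter, with 277 identical bases, 22 mismatches and 2 gap bases (92.0% identical) over the windows of 300 bases. Their single element lies 106 and 105 bases before the start. A TATA box, TATAAA or TTTATA, was found for these 2 of 19 chaperone genes and for 3 of 9 early response genes (FOS, FOSB and JUNB), against 14.0% of all genes. HSP90AA1, HSP90AB1 and HSPA8 have 2 elements each, at least 1 of them a run of 3 units, and HSPB1 has 1 element of 2 units at 182 bases before the start. The CArG box, the serum response element of early genes, was found for 1 of 9 early response genes (EGR1) and 0 of 19 chaperone genes, against 1.60% of all genes. An AP-1 site (TGANTCA) was found for BAG3 and FOSL2, against 9.37% of all genes, and a CCAAT box (CCAAT or ATTGG) for 6 of 19 chaperone genes and 4 of 9 early response genes, against 39.7%. A match of letters is a description of the window and not a bound site. Elements outside the windows were not searched for, so a gene without a match may still have one further away.

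Both HSP90 transcripts and the small heat shock protein transcript HSPB1 were higher in LNCaP_C4-2B than in LNCaP_FGC, the inducible HSP70 transcript HSPA1B was lower, and of the early response genes JUND had the most additional transcripts. Summed over the 21 chaperone genes, LNCaP_FGC had 8473 CPM and LNCaP_C4-2B 10234 CPM (1.21-fold, 1.20 to 1.21). This fold follows HSP90AB1 (1666 and 3016 CPM) and HSPB1 (483 and 1268 CPM) and does not describe the class. Over the 20 chaperones with at least 50 UMIs in the 2 libraries together, the median log2 ratio of CPM was -0.45. Summed over the 10 early response genes, the levels were 226 and 419 CPM (1.85-fold, 1.80 to 1.90). JUND alone made up 110 and 303 CPM of these sums, so the fold follows JUND and does not describe the class. The 2 HSF genes together stood at 58.7 and 65.0 CPM (1.11-fold, 1.04 to 1.18).

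These folds are ratios of CPM, on which scale the median gene was itself lower in LNCaP_C4-2B, with a log2 ratio of -0.43 over 14142 genes with at least 50 UMIs in the 2 libraries together. Genes were therefore counted as higher or lower when their ratio differed by 1.5-fold or more from the ratio of this median gene. Of the 33 genes 29 were compared, and 10 were higher and 3 lower. Over all compared genes 23.8% were higher and 23.4% lower, so the share of the chaperones that was higher (6 of 20 compared) was near the background. The chaperones that were higher were HSP90AA1, HSP90AB1, HSPB1, HSPD1, HSPH1 and DNAJA2, and those that were lower were HSPA1B, HSPA14 and DNAJB4. Of the early response genes 7 of 10 were compared, and FOS, JUND and IER2 were higher and none was lower. FOS is among the genes compared only because of its count in LNCaP_C4-2B, so its place in these counts follows from the filter. HSF1 was higher and HSF2 was not counted. The median log2 ratio relative to the median gene was -0.01 for the chaperones and 0.33 for the early response genes. The latter was 0.17 over genes with at least 10 UMIs, 0.21 over those with at least 200 and 0.055 in G2M cells. HSPA1A, FOSB, EGR1 and IER3 had too few UMIs to be compared. The counts relative to the median gene do not move with the scaling, but the sign of a ratio can. With TMM factors the median gene stood at 0.05, and HSPA13, DNAJB6, HSF2, JUN and JUNB, lower by CPM, were higher.

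**Figure D1:**
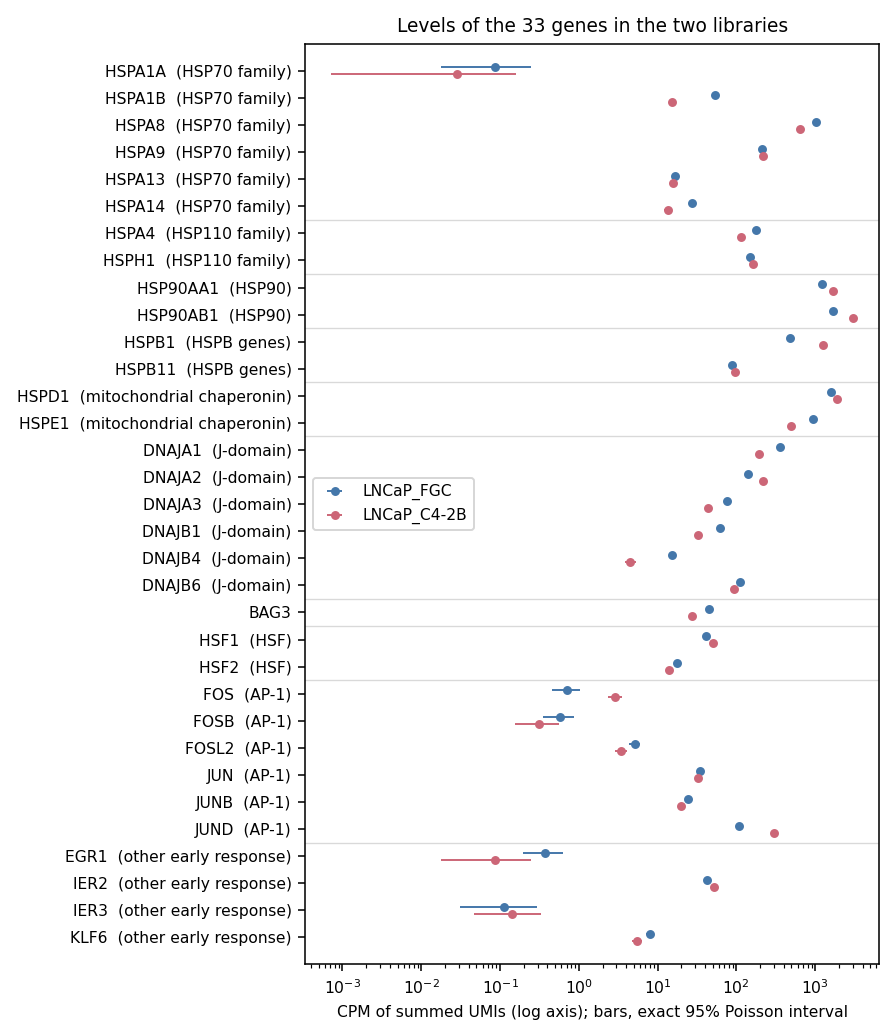
Level of each of the 33 genes in LNCaP_FGC (blue) and LNCaP_C4-2B (red) as CPM of summed UMIs on a log axis, with exact 95% Poisson intervals as bars. HSP90AB1, HSPB1 and JUND lie to the right in LNCaP_C4-2B, HSPA1B and DNAJB4 to the left, and HSPA1A, FOSB, EGR1 and IER3 lie under 1 CPM in both.

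Of the HSP90 genes, HSP90AA1 (the more stress-responsive cytosolic form; chromosome 14, 102080742 to 102139699, minus strand) had 1222 CPM in LNCaP_FGC and 1679 CPM in LNCaP_C4-2B (1.37-fold, 1.36 to 1.39). HSP90AB1 (the constitutive form; chromosome 6, 44246166 to 44253888) had 1666 and 3016 CPM (1.81-fold, 1.79 to 1.83). Each cell thinned to 11901 UMIs held a median of 19 HSP90AB1 UMIs (10th to 90th percentile 10 to 31) in LNCaP_FGC and of 36 (23 to 52) in LNCaP_C4-2B. The distributions thus overlapped, with the upper LNCaP_FGC cells within the range of LNCaP_C4-2B. HSPB1 (the small heat shock protein HSP27; chromosome 7, 76302673 to 76304295) stood at 483 and 1268 CPM, a 2.62-fold higher level in LNCaP_C4-2B (2.58 to 2.67). In the thinned cells its median was 5 UMIs (2 to 10) against 14 (8 to 23). HSPB11, which shares the HSPB name and is a subunit of ciliary transport, had 88.2 and 96.1 CPM and was not counted (1.47-fold above the median gene).

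The HSP70 family had no gene that was higher. HSPA1B (chromosome 6, 31827738 to 31830254) had 53.5 CPM (1881 UMIs) and 15.2 CPM (535 UMIs), a 3.52-fold lower level in LNCaP_C4-2B (3.19 to 3.88). Its neighbour HSPA1A (chromosome 6, 31815543 to 31817946), which encodes nearly the same protein, had 3 UMIs in LNCaP_FGC and 1 UMI in LNCaP_C4-2B. The copies share sequence near their 3′ ends. Of the 90-base windows in the last 500 bases of HSPA1A transcripts, 14.5% also lay in another gene, HSPA1B above all, while none of the HSPA1B windows did, so the split of reads between the copies is uncertain. HSPA8, the constitutive cytosolic HSP70, had 1014 and 650 CPM (1.56-fold lower, 1.53 to 1.59), which lay 1.15-fold under the median gene. HSPA9, the mitochondrial HSP70, had 209 and 215 CPM, and HSPA13, a microsomal member, 16.7 and 15.8 CPM. HSPA14, a ribosome-associated member, was 2.05-fold lower in LNCaP_C4-2B (1.84 to 2.29) at 27.5 and 13.4 CPM, and was just counted at 1.52-fold under the median gene. Of the HSP110 exchange factors, HSPH1 had 147 and 164 CPM and was just counted at 1.51-fold above the median gene, and HSPA4 had 177 and 114 CPM.

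The genes of the mitochondrial chaperonin are HSPD1 (HSP60) and HSPE1 (its lid, HSP10). By their RefSeq starts they lie head to head on chromosome 2 with 105 bases between them. The GENCODE span of HSPD1 given here runs beyond its RefSeq start and encloses that of HSPE1. The 2 genes differed in opposite directions by CPM. HSPD1 (197486584 to 197516737) had 1608 CPM in LNCaP_FGC and 1881 CPM in LNCaP_C4-2B (1.17-fold, 1.16 to 1.18). HSPE1 (197500140 to 197503449) had 952 and 496 CPM (1.92-fold lower, 1.89 to 1.96). HSPD1 lay 1.58-fold above the median gene and HSPE1 1.42-fold under it. Counts of the pair are uncertain, since 16.2% of the HSPE1 windows lay in other genes, among them HSPE1-MOB4, and 5.22% of the HSPD1 windows in HSPD1P1.

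The J-domain genes, whose products hand clients to HSP70, did not move as a group. DNAJA2 was 1.55-fold higher in LNCaP_C4-2B (1.498 to 1.611), at 139 and 216 CPM. DNAJB4 was 3.41-fold lower (2.85 to 4.09; 15.4 and 4.52 CPM). DNAJA1, DNAJA3 and DNAJB1, the last an HSF1 target and the main partner of inducible HSP70, were 1.85-fold, 1.74-fold and 1.88-fold lower by CPM, but between 1.29-fold and 1.39-fold under the median gene and so not counted. DNAJB6 had 110 and 92.1 CPM. BAG3, a cochaperone of selective autophagy, was 1.65-fold lower (1.52 to 1.79) at 45.6 and 27.7 CPM, and not counted. HSF1, the main factor of the heat shock response, had 41.2 and 51.0 CPM (1.24-fold, 1.16 to 1.33), and HSF2 17.5 and 14.0 CPM.

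Of the AP-1 subunit genes, JUND (chromosome 19, 18279694 to 18281622, minus strand) had 110 CPM in LNCaP_FGC and 303 CPM in LNCaP_C4-2B, a 2.77-fold higher level (2.66 to 2.87). JUND made up most of the summed early response level in LNCaP_C4-2B, whereas JUN (34.7 and 32.2 CPM) and JUNB (24.5 and 19.7 CPM) were close to the median gene. The FOS count was 25 UMIs in LNCaP_FGC and 102 in LNCaP_C4-2B (4.08-fold, 2.61 to 6.60). Of the 102 UMIs 31 came from 3 cells. FOSL2 had 5.12 and 3.44 CPM, and FOSB 20 and 11 UMIs. Of the other early response genes, IER2 had 42.8 and 52.1 CPM (1.22-fold, 1.14 to 1.30; 1.64-fold above the median gene), KLF6 8.02 and 5.55 CPM, EGR1 13 and 3 UMIs and IER3 4 and 5 UMIs.

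For HSPA1B, HSPB1, HSP90AB1 and JUND the direction was the same within cells of each phase. The ratio for HSPA1B was 0.303, 0.294 and 0.261 in G1, S and G2M cells, that for HSPB1 2.74, 2.72 and 2.41, that for HSP90AB1 1.96, 1.72 and 1.70 and that for JUND 2.61, 3.26 and 2.60. The ratio for FOS was 7.80 in G1 (4.03 to 16.9), 1.08 in S (0.352 to 3.29) and 1.85 in G2M (0.684 to 5.46). These intervals treat UMIs as independent, whereas the 81 FOS UMIs in G1 cells of LNCaP_C4-2B came from 40 cells. FOS was detected in 4.42% of the G1 cells of LNCaP_C4-2B (3.18 to 5.98) and in 1.24% of those of LNCaP_FGC (0.598 to 2.28).

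**Figure D2:**
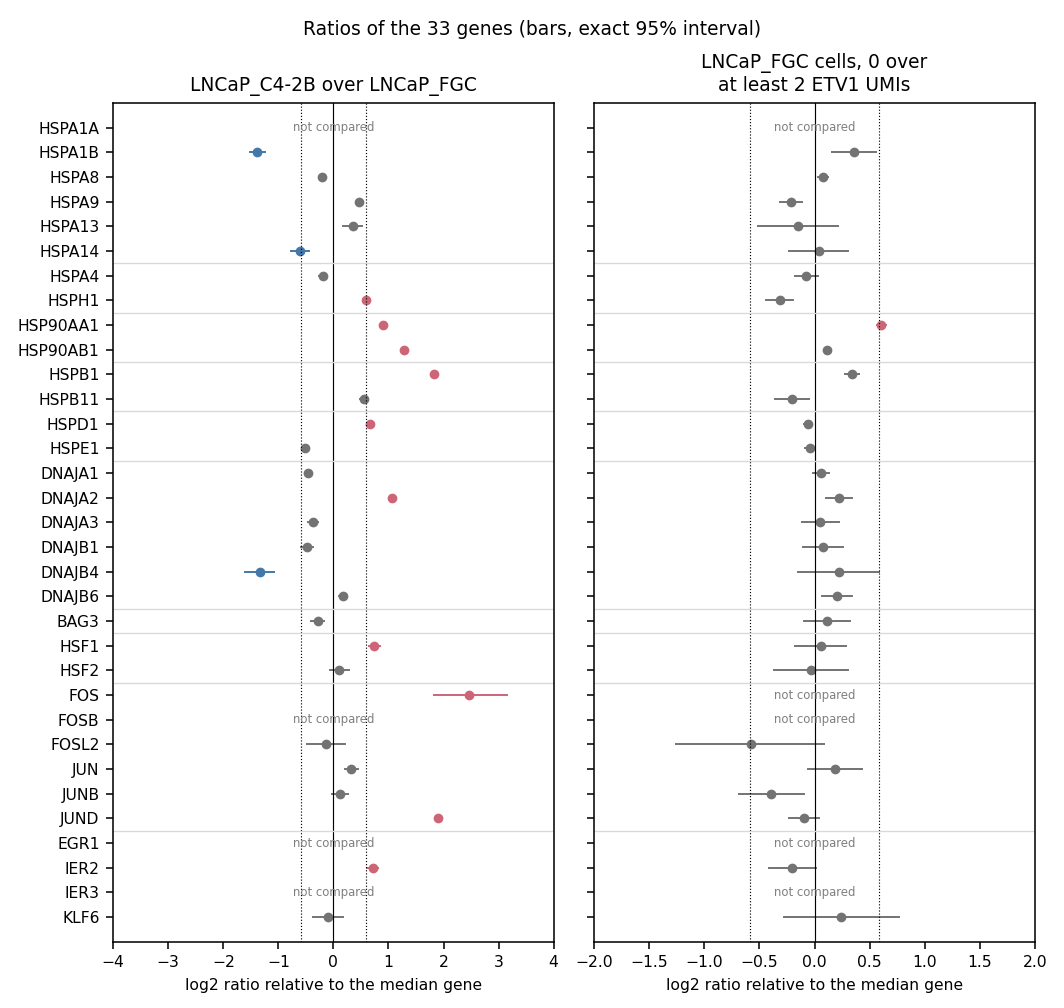
Log2 ratio of each gene relative to the median gene, for LNCaP_C4-2B over LNCaP_FGC (left) and for LNCaP_FGC cells with 0 over cells with at least 2 ETV1 UMIs (right, on a narrower axis). Points are ratios with exact 95% intervals, dotted lines mark 1.5-fold, and red and blue points were counted as higher and lower. The left panel has 10 red and 3 blue points and the right panel 1 red point, HSP90AA1.

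Other genes of these pathways were described from 2 lists that do not hold the members. Of 57 other chaperones and cochaperones 44 were compared, and 10 were higher and 5 lower, against 23.8% and 23.4% of all genes. Among those with at least 20 CPM the ends were STUB1 (a ubiquitin ligase that acts with HSP70; 206 and 486 CPM, 2.36-fold higher, 2.30 to 2.43) and TRAP1 (the mitochondrial HSP90; 1.63-fold higher, 1.55 to 1.70), and TCP1 (a subunit of the cytosolic chaperonin; 474 and 194 CPM, 2.44-fold lower, 2.37 to 2.51) and DNAJB14 (2.17-fold lower, 2.02 to 2.33). Of the other subunits of that chaperonin, CCT3, CCT5 and CCT7 were counted as higher, and CCT2, CCT4, CCT6A and CCT8 were not counted. Of 30 other early response genes 22 were compared, and 7 were higher and 6 lower, against the same shares of all genes. Among those with at least 20 CPM, BTG1 (an antiproliferative gene; 307 and 420 CPM, 1.37-fold, 1.33 to 1.40) and ATF3 (a stress-induced factor; 19.7 and 24.7 CPM) were at the upper end. SRF, the factor that binds the serum response element (3.43-fold lower, 3.04 to 3.87), and MCL1 (2.86-fold lower, 2.64 to 3.09) were at the lower end.

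Within LNCaP_FGC, HSP90AA1 was higher in cells in which the ETS factor gene ETV1, rearranged in this line, was not detected. LNCaP_FGC held 5426 UMIs of ETV1 and LNCaP_C4-2B 0 (0 of 1850 cells with a UMI, which, with a floor of 3 cells, allows a share of detected cells of up to 0.162% and does not limit expression), so its status could be compared within LNCaP_FGC alone. At 11901 UMIs per cell, 628 cells had 0 ETV1 UMIs, 259 had 1 and were left out, and 736 had at least 2. Between these groups the median of 11461 genes lay at 0.08 on the log2 scale. Of 28 members compared, only HSP90AA1 lay at least 1.5-fold above the median gene and none lay as far under it, against 4.17% and 4% of all genes. It had 1537 CPM without ETV1 UMIs (which does not show that a cell lacks the transcript) and 955 CPM with at least 2 UMIs (1.61-fold, 1.56 to 1.65). Single cells held a median of 17 HSP90AA1 UMIs (10th to 90th percentile 7 to 32) against 10 (4 to 21), so the groups overlapped widely. Relative to the median gene the log2 ratio was 0.61, close to the limit, and it was 0.56 and not counted when the cells were thinned with another random seed.

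HSP90AA1 had 1537 CPM at 0 ETV1 UMIs, 1305 CPM at 1, 1076 CPM at 2, 950 CPM at 3, 870 CPM at 4 and 867 CPM at 5 or more. Neighbouring levels lay apart beyond their counting intervals up to 3 UMIs, and those at 3, 4 and 5 or more overlapped with their neighbours. LNCaP_C4-2B cells at the same depth had 1683 CPM. HSPB1 followed the same order, with 542, 517, 449, 415, 381 and 361 CPM and 1271 CPM in LNCaP_C4-2B. Of its neighbouring levels only those at 1 and 2 UMIs had intervals that did not overlap. HSPB1 was 1.34-fold higher without ETV1 (1.28 to 1.40) and HSPA1B 1.36-fold higher (1.18 to 1.56; 59.4 and 43.8 CPM). JUND had 109 and 110 CPM in these groups and 297 CPM in LNCaP_C4-2B at this depth. HSPA1B had 14.2 CPM there, under both ETV1 groups, whereas HSP90AA1 and HSPB1 were above both.

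At a lower limit of 0.32 from the median gene on the log2 scale, 3 of 28 members compared were higher without ETV1, against 12.5% of all genes. They were HSP90AA1, HSPB1 and HSPA1B. Of the 28 members 2 were lower, against 11.2%, JUNB (21.7 and 26.9 CPM; 1.24-fold lower, 1.01 to 1.53) and FOSL2 (32 and 53 UMIs; 1.41-fold lower, 0.895 to 2.27). Neither share of the members exceeded that of all genes. The FOSL2 interval includes no difference. HSPH1 was 1.18-fold lower and HSP90AB1 1.14-fold higher (1.12 to 1.17). The summed chaperones had 9180 and 8001 CPM (1.15-fold, 1.14 to 1.16) and the summed early response genes 225 and 230 CPM. FOS had 1 UMI without ETV1 and 10 with it, and FOSB 0 and 7, which is too few to compare. Of the other pathway genes, BAG2, an HSP70 cochaperone, was 2.36-fold higher without ETV1 (1.91 to 2.93; 35.9 and 15.2 CPM), GADD45A and ATF3 were 1.81-fold and 1.69-fold higher, BTG1 was 1.72-fold lower (1.62 to 1.82) and ZFP36L2 1.78-fold lower (1.42 to 2.24). FKBP5, a cochaperone of HSP90 that is also an androgen-responsive gene, was 1.36-fold higher (1.26 to 1.47), and DNAJC3 and CCT3 were at the lower end with ratios of 0.718 and 0.856.

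Cells without ETV1 UMIs had a median mitochondrial share of 6.29% against 5.90%, a ribosomal protein share of 21.8% against 23.7% and 3947.5 against 3819 genes detected, and 40.3% against 46.7% were in G1. In G1 cells the HSP90AA1 ratio was 1.65 (1.57 to 1.73). It was 1.56 among S cells (1.48 to 1.65) and 1.51 among G2M cells (1.44 to 1.58). Its log2 ratio relative to the median gene was 0.65 in cells at or below the median mitochondrial share and 0.65 in those above, and 0.59 and 0.53 for the ribosomal share. Whether other differences between these cells take part in the result was not tested.

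**Figure D3:**
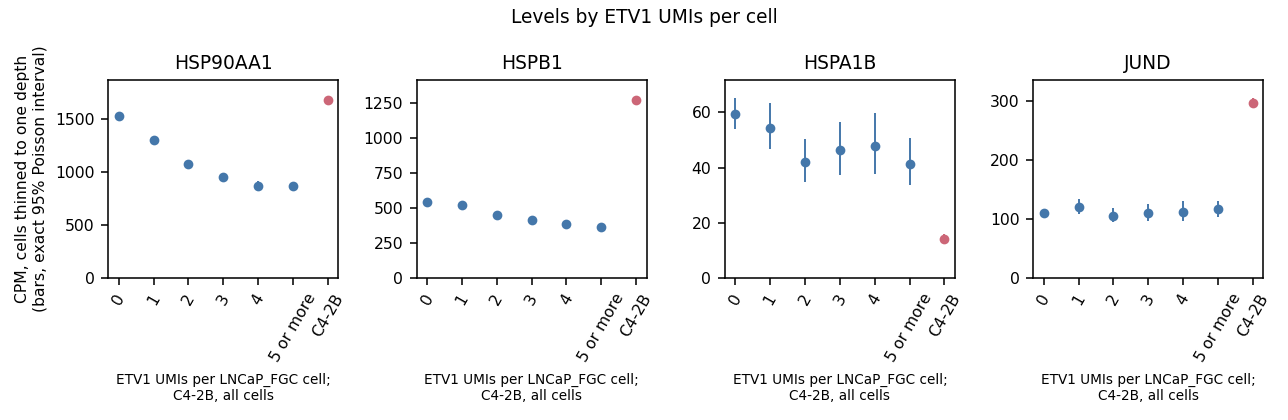
Levels of HSP90AA1, HSPB1, HSPA1B and JUND in LNCaP_FGC cells by their number of ETV1 UMIs (blue) and in all LNCaP_C4-2B cells (red), as CPM of cells thinned to 11901 UMIs, with exact 95% Poisson intervals. HSP90AA1 declines from 1537 to 867 CPM and HSPB1 from 542 to 361 CPM, while JUND stays between 105 and 120 CPM.

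Chaperone transcripts tended to be lower in G1 cells than in S and G2M cells, and most early response genes compared lay on the other side in G1, in both lines. In LNCaP_C4-2B most early response genes lay above the median gene in S as well. Phases were called in each library from S and G2M genes that include no member, and each phase was compared with the other cells of its library. In LNCaP_FGC all 20 chaperones compared lay under the median gene in G1 (median log2 ratio -0.26), while 15 of 20 lay above it in S (0.15) and 19 of 20 in G2M (0.16), and by construction the genes at large divide evenly. None reached 1.5-fold in any phase, against 9.84% of all genes that were lower in G1 and 5.09% that were higher in G2M. In S cells of this line 0 chaperones and 0 early response genes were counted, against 5.25% of genes higher and 4.59% lower. Of the early response genes 5 of 6 lay above the median gene in G1, 2 of 6 in S and 2 of 6 in G2M. In LNCaP_C4-2B 15 of 20 chaperones lay under it in G1 (-0.17), 12 of 20 above it in S (0.07) and 14 of 20 in G2M (0.13). Of the early response genes 5 of 7, FOS among them, lay above it in G1 (0.12). In S 5 of 7 did (0.30) and in G2M 1 of 7 (-0.38).

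In LNCaP_C4-2B, 5 chaperones were counted as lower in G1 (against 9.45% of all genes). They were HSPH1 (123 CPM in G1 and 197 in the other cells, 1.60-fold lower, 1.52 to 1.69), DNAJA1 (143 and 233 CPM, 1.63-fold lower), BAG3 (1.63-fold lower), HSPA14 (1.60-fold lower) and DNAJB4 (1.79-fold lower). In G2M, DNAJA1 (1.58-fold, 1.51 to 1.66) and BAG3 (1.65-fold, 1.45 to 1.88) were higher, against 5.1% of all genes, and in S HSPA14 (1.62-fold, 1.33 to 1.97), against 6.15%. HSP90AA1 was lower in G1 in both lines, with log2 ratios relative to the median gene of -0.57 in LNCaP_FGC and -0.42 in LNCaP_C4-2B. HSP90AB1 (-0.12 and 0.12) and HSPB1 (-0.01 and 0.14) varied less.

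FOS was 4.98-fold higher in G1 than in the other cells of LNCaP_C4-2B (3.05 to 8.47), with 81 and 21 UMIs, and was counted as higher with 7.09% of all genes. It passed the minimum of 50 UMIs only through its G1 cells. It was lower in S and G2M, with 8 and 13 UMIs. FOSL2 was 1.80-fold higher in G1 of LNCaP_FGC (1.33 to 2.45; 6.54% of all genes were higher) and lower in G2M of both lines (1.72-fold in LNCaP_FGC, where 5.15% of all genes were lower, and 1.84-fold in LNCaP_C4-2B, where 5.59% were). JUN was higher in S (1.59-fold, 1.40 to 1.80) and lower in G2M (1.52-fold, 1.32 to 1.74) in LNCaP_C4-2B. In LNCaP_FGC its log2 ratios relative to the median gene had the same signs, 0.37 and -0.40, without reaching 1.5-fold. In S of LNCaP_C4-2B 5.74% of all genes were lower, FOS among them.

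**Figure D4:**
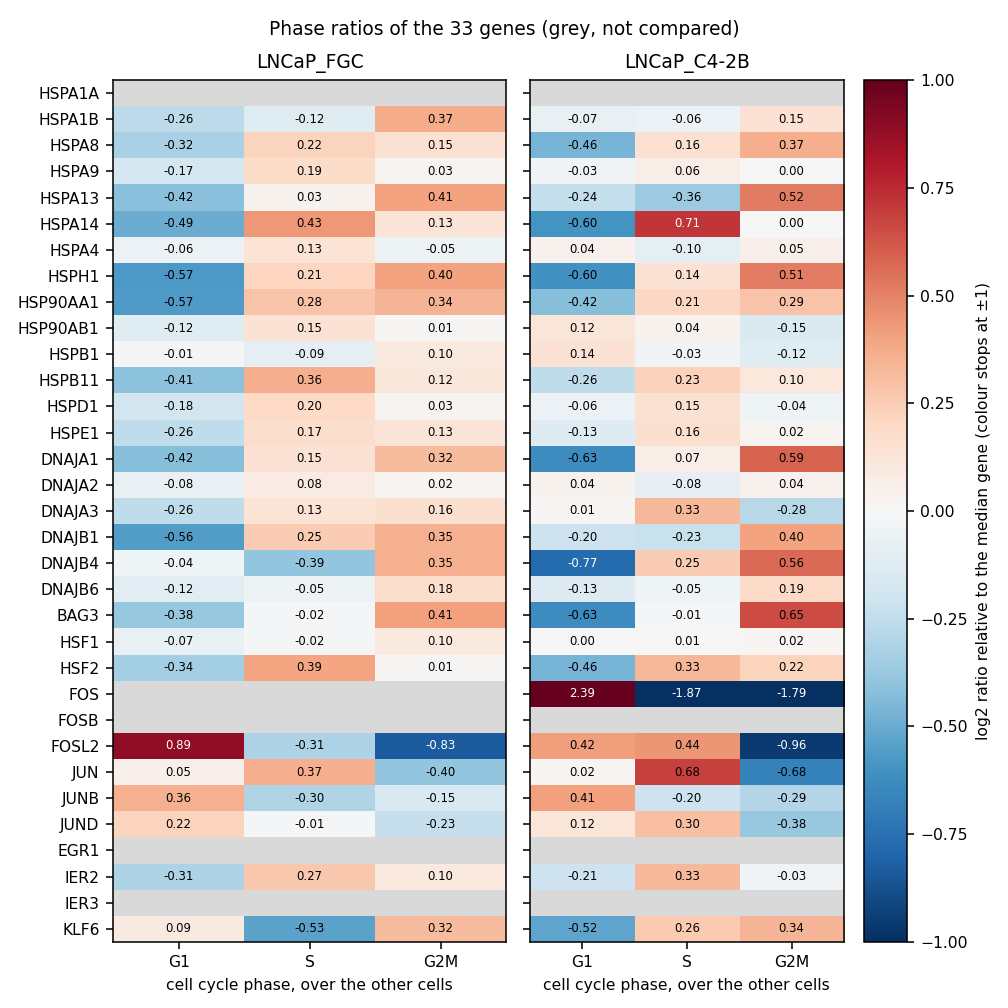
Log2 ratio relative to the median gene of each gene in cells of a phase over the other cells of the same library, for LNCaP_FGC (left) and LNCaP_C4-2B (right), with grey for genes under 50 UMIs. The G1 column is blue for all 20 chaperones compared in LNCaP_FGC and for 15 of 20 in LNCaP_C4-2B. FOS, compared in LNCaP_C4-2B only through its G1 UMIs, stands out there at 2.39 in G1.

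FOS was detected in few cells, 23 of 1850 in LNCaP_FGC (1.24%, exact binomial interval 0.790 to 1.86) and 57 of 1850 in LNCaP_C4-2B (3.08%, 2.34 to 3.97). In LNCaP_C4-2B 40 of these cells were in G1 (4.42% of 904 G1 cells, 3.18 to 5.98), against 7 of 390 S and 10 of 556 G2M cells. The libraries hold no cell type that lacks FOS, so a share due to free RNA was not measured. In FOS-positive cells of LNCaP_C4-2B, JUND had 644 CPM against 293 CPM in the other cells (2.20-fold, 2.03 to 2.38), JUNB 32.8 against 19.3 CPM and JUN 52.1 against 31.6 CPM, while IER2 was lower at 36.7 against 52.6 CPM (ratio 0.698, 0.492 to 0.961). Of the 57 cells 42 held a single FOS UMI. In LNCaP_FGC, JUN (79.9 against 34.0 CPM) and JUNB (49.2 against 24.1 CPM) were also higher in FOS-positive cells, and JUND was at 117 against 109 CPM. HSP90AA1 was lower in FOS-positive cells of both lines, 856 against 1227 CPM and 1414 against 1687 CPM. These cells also differed in traits that went with HSP90AA1. In LNCaP_C4-2B most were in G1, where HSP90AA1 was lower. In LNCaP_FGC thinned cells with at least 2 ETV1 UMIs, in which HSP90AA1 was lower, held 10 FOS UMIs and those without held 1. The part of phase and ETV1 status in this difference was not tested.

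Across cells of a library HSP90AA1, HSP90AB1, HSPD1 and HSPE1 varied together, HSPB1 did not vary with HSPD1 or HSPA8, and no pair of a chaperone with an early response gene exceeded 0.2. Correlations were taken across cells thinned to 11901 UMIs (1623 in LNCaP_FGC and 1665 in LNCaP_C4-2B), which share library, depth and cell cycle, and they are given as a description. In LNCaP_FGC the highest were HSP90AB1 with HSPD1 (Pearson 0.51), HSP90AA1 with HSP90AB1 (0.45), HSP90AA1 with HSPD1 (0.43) and HSPD1 with HSPE1 (0.41). In LNCaP_C4-2B they were HSP90AA1 with HSP90AB1 (0.44), HSPH1 with HSP90AA1 (0.43) and HSP90AB1 with HSPD1 (0.38), and HSPD1 with HSPE1 stood at 0.28. HSPB1 had 0.17 with HSP90AA1 in each line, 0.02 and -0.05 with HSPD1 and 0.05 and 0.01 with HSPA8. Within G1 cells alone HSP90AA1 with HSP90AB1 had 0.46 and 0.55. The pair of HSPH1 with HSP90AA1, at 0.43 in LNCaP_C4-2B, stood at 0.09 in LNCaP_FGC, and within G1 cells at 0.41 and 0.00457. With 1 library per line this difference has no replicate check. Of 190 chaperone pairs in LNCaP_FGC 19 exceeded 0.2, and of 171 in LNCaP_C4-2B 18 did. No pair of early response genes did, and their highest values were 0.12 and 0.13.

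The summed chaperones and the summed early response genes had a correlation of -0.11 in LNCaP_FGC and -0.17 in LNCaP_C4-2B. JUND with HSPD1 was the lowest pair in each line, at -0.14 and -0.23. HSPB1 had 0.01 and 0.17 with JUND, where the rank correlation in LNCaP_C4-2B was 0.04. HSF1 and HSF2 had few UMIs per cell, and no pair with HSF1 or HSF2 lay outside -0.07 to 0.07. HSP90AA1 also correlated with the number of genes detected (0.42 and 0.38) and with the ribosomal share (-0.35 and -0.40), and the part of this in the correlations between chaperones was not tested.

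HSP90AA1 had the highest Fano factor of the members in both lines. This factor, the variance over the mean of thinned UMIs, was 5.60 in LNCaP_FGC and 4.10 in LNCaP_C4-2B, against medians of 1.08 and 1.07 over genes with at least 20 CPM. HSP90AB1 had 3.28 and 3.50, HSPD1 3.05 and 2.72 and HSPB1 2.61 and 3.76. The factors were not adjusted for the mean, and the background genes were not matched to the members by level. The part of abundance in the ranking and in the distance from the background medians was therefore not tested. In LNCaP_FGC the mean per thinned cell was 14.71 UMIs for HSP90AA1, 20.14 for HSP90AB1 and 19.36 for HSPD1, and lower for the other members. JUND had 1.26 in LNCaP_FGC and 2.91 in LNCaP_C4-2B, where the highest cell held 66 JUND UMIs as deposited against 17 in LNCaP_FGC.

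**Figure D5:**
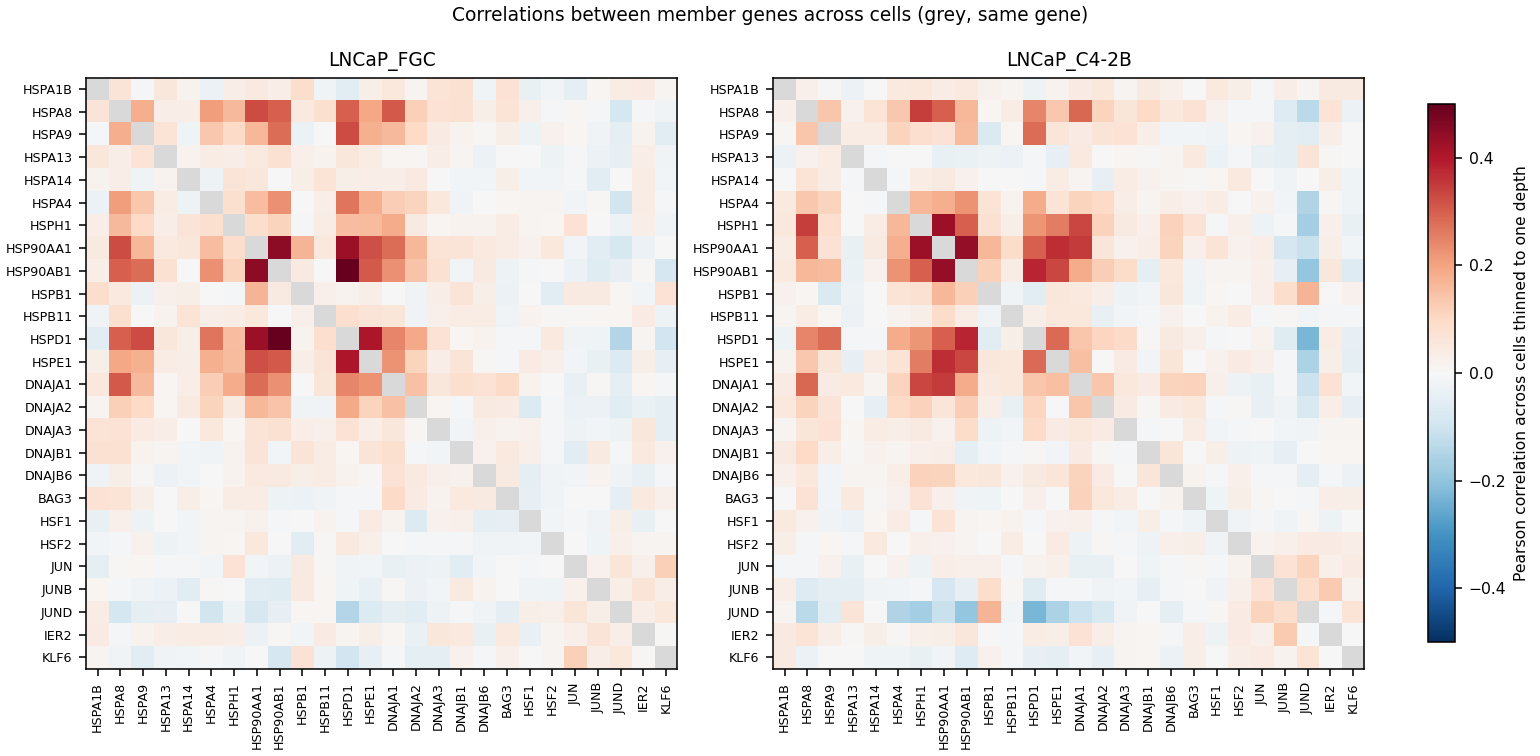
Pearson correlation between 26 of the genes across cells thinned to 11901 UMIs, for LNCaP_FGC (left) and LNCaP_C4-2B (right), with colour from -0.5 (blue) to 0.5 (red). The red block joins HSPA8, HSP90AA1, HSP90AB1, HSPD1, HSPE1 and DNAJA1 in both lines and also HSPH1 in LNCaP_C4-2B, and the row of JUND is blue against them.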

How the data were processed

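Per the labels and the study's methods, the authors aligned reads with Cell Ranger 6.0 to GRCh38, filtered cells in Seurat 5.011 (as the submitters' processing notes name it) by genes, reads, hemoglobin, ribosomal and mitochondrial shares and a doublet score, drew 1850 cells per line and thinned both libraries to one mean depth. The deposited values are whole UMI counts per gene and cell, and doublets were not called again.

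UMIs were summed per group of cells and divided by the group's total (CPM). Ratios have exact conditional 95% intervals, and genes with at least 50 UMIs over both groups were compared at 1.5-fold from the median gene. ETV1 groups and correlations used cells thinned to 11901 UMIs, which left out 227 LNCaP_FGC and 185 LNCaP_C4-2B cells. Phases came from Seurat 5.3.0 in R 4.3.3, TMM factors from edgeR 4.0.16, median-of-ratios factors from DESeq2 1.42.0, and the rest from Python 3.11.15 with numpy 2.4.6, scipy 1.17.1 and pandas 2.3.3. The calculation was tested on simulated data. Positions are from GENCODE v44. Members and lists were chosen with earlier results of these data known. All members are described, and of the other lists up to 2 genes at each end with at least 20 CPM are named, with other subunits of the cytosolic chaperonin added after their values were seen.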

Additional observations from a re-analysis of the deposited data

How the results depend on the processing

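In the comparison of the lines, 3 chaperones were higher at a limit of 2-fold, and 7 were lower at the smaller limit of 0.32 on the log2 scale and 5 in G2M cells. The chaperone median was -0.10 in S cells. Of the early response genes 1 was lower with a minimum of 10 UMIs or of 1 UMI, and their median was 0.17 with at least 10 UMIs, 0.21 with at least 200, 0.52 in S and 0.055 in G2M cells. In the ETV1 comparison, 0 chaperones were higher with another thinning seed, against cells with at least 1 ETV1 UMI, in G2M cells and above the median ribosomal share, 2 above the median mitochondrial share and 3 at the smaller limit. In S cells 1 chaperone was lower and the median was -0.012, and at or below the median mitochondrial share it was 0.14. Of the early response genes 1 was higher in G1 cells, 1 was lower with another seed, against at least 3 ETV1 UMIs, in S cells, with at least 10 UMIs and above the median mitochondrial share, and 2 were lower at the smaller limit. Their median was 0.15 above the median ribosomal share. The splits by mitochondrial and ribosomal share were chosen after seeing the data.

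At the smaller limit, 9 chaperones were lower in G1 of LNCaP_FGC and 2 early response genes higher. In S of LNCaP_FGC 2 chaperones were higher and 1 lower, and 1 early response gene was higher and 1 lower. In G2M of LNCaP_FGC 7 chaperones were higher and 2 early response genes lower. In LNCaP_C4-2B 3 early response genes were higher and 1 lower in G1, 2 chaperones and 3 early response genes were higher and 1 chaperone lower in S, and 7 chaperones and 1 early response gene were higher in G2M. With at least 10 UMIs, 1 early response gene was lower in G1 and 1 higher in G2M of LNCaP_FGC, and in LNCaP_C4-2B 2 were higher in G1, with a median of 0.25, and 2 lower in S. The correlation of the HSP90 and chaperonin sums in LNCaP_C4-2B, 0.48, was 0.54 with deposited counts per 10000 UMIs and 0.56 in G1 cells. The cause of these changes was not tested. The other 233 values of this kind stayed within the limits set. The ETV1 medians of the early response genes (-0.15) and of the chaperones (0.07) thus changed sign above the median ribosomal share and in S cells. Of the values of single genes 76 moved and 202 did not, and HSPA8 in the ETV1 comparison changed sign (-0.016 to 0.156). Part of the 233 and 202 unmoved values was fixed by construction, so these tallies do not measure stability. Values relative to the median gene cannot move with the scaling of totals, and medians and single-gene values cannot move with the limit. HSP90AA1 in the ETV1 comparison ranged from 0.48 to 0.69, and FOS between the lines from 0.523 to 3.400. No paired analysis was possible because each line has 1 library.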

Other observations

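The 18 LNCaP_C4-2B cells with the most JUND per 10000 UMIs, a set chosen after the values were seen, are a range and not a separate group, since the last cell inside the set (15.5) was close to the first outside it (15.2). Their JUND level, 2372 against 289 CPM, was fixed by the choice. These cells held 19 of the 102 FOS UMIs (80.1 against 2.38 CPM), 118 against 19 CPM of JUNB and 96.9 against 32.2 CPM of DNAJB1. HSPB1 stood at 2591 against 1259 CPM, while HSPD1 (708 against 1889 CPM), HSPE1 (139 against 498 CPM), HSPH1 (37.9 against 165 CPM) and HSP90AA1 (872 against 1685 CPM) were lower. Of the 18 cells 17 were called G1, and they had a median of 12159.5 UMIs and 2973.5 genes against 17600.5 and 4148.5, and a median mitochondrial share of 5.19% against 8.29%. The part of depth in these values was not tested. The number of cells behind the 19 FOS UMIs was not counted. In the 18 LNCaP_FGC cells chosen likewise, FOS had 0 of 25 UMIs and DNAJB1 56.4 against 61.4 CPM. JUNB (43.1 against 24.3 CPM) and HSPB1 (676 against 482 CPM) were higher there. HSPD1 (1280 against 1611 CPM), HSPE1 (779 against 954 CPM), HSPH1 (119 against 147 CPM) and HSP90AA1 (1054 against 1224 CPM) were lower. The JUNB and HSPH1 intervals included no difference.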
